A study of Rattus norvegicus with 8 samples.

Results

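The genes described here encode collagens, laminins and other proteins of the extracellular matrix and the basement membrane, with their proteases, protease inhibitors and crosslinking enzymes and 3 genes of mesenchymal cells. The list named 44 genes. All 44 had a probe set of their own on the array, and the brightest probe set by mean over the 8 arrays stood for each gene, out of 14217 genes with a single symbol. Of the 44 genes, 24 passed a filter that kept the upper 60% of probe sets by mean level, and 20 did not. The study compared the distal colon mucosa of rats given a diet with 10 g of quercetin, a plant flavonol, per kg (4 arrays) with that of rats given the control diet, an RM3 rat breeder chow (4 arrays). Both groups were fed for 11 weeks, and mucosa was scraped off the rinsed colon with glass slides. The labels give no strain, sex or age of the rats. Nor do they say that each array holds a separate rat, so a p-value here reflects how far these samples scatter, which may be technical.

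The colon epithelium rests on a basement membrane, a sheet in which laminin trimers and a collagen IV network are joined by nidogens and the proteoglycan perlecan. Beneath it lies the lamina propria, where fibroblasts make fibrillar collagens, collagen VI, fibronectin, fibrillin and small proteoglycans. Matrix metalloproteinases cut these proteins, TIMPs inhibit the proteases, and lysyl oxidases crosslink collagen and elastin.

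Values are MAS5 signals, the linear brightness of a probe set after each array was scaled to a common mean. Probe sets bind with different strength, so a signal was compared between arrays and not with that of another gene. Differences are quercetin minus control on the log2(signal + 16) scale, which understates the change of dim genes. The test was limma across all 18625 probe sets that passed the filter, with Benjamini-Hochberg adjustment over all of them. Control array 2 had a GAPDH 3' to 5' signal ratio of 3.79, against 1.58 to 2.36 on the others, a ratio that is higher where RNA is shortened. The same ratio of beta-actin was 7.18, 8.90, 9.12 and 6.79 on quercetin arrays 1 to 4. It was 8.65, 21.4, 10.2 and 12.4 on control arrays 1 to 4. Control arrays 2, 3 and 4 thus lay above every quercetin array, and the bearing of the actin ratio on the differences was not tested.

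None of the 24 tested matrix genes passed the adjusted threshold of 0.05 in limma, and their adjusted p-values ran from 0.476 to 0.99. At an unadjusted p under 0.05 there were 0 of 24, against 10.8% of all probe sets tested (5.04% higher and 5.71% lower). The groups did not overlap for 1 gene, the laminin chain Lamb3, which was lower in quercetin. That is 4.17% of the 24, against 6.39% of all probe sets tested (3.09% higher and 3.3% lower). A share of 0.0107% of all probe sets passed the adjusted threshold. By sign alone 15 of the 24 genes had a higher mean in quercetin and 9 a lower one, 62.5% higher against 51.3% of all probe sets tested. The median difference of the 24 was 0.13, against 0.01 for all probe sets tested. It was 0.06 without control array 4, 0.07 without quercetin array 2 and 0.08 without control array 3. The full range with 1 array left out was 0.06 to 0.19. Col14a1, Fbn1, Col3a1 and Fbln2, all with higher means in quercetin, had a control mean below the limit of the filter and passed it only through the quercetin arrays, while 0 genes passed only through the control arrays. The count by sign and the median rest partly on that, and no direction is read from them; of the 20 genes past the limit in both groups, 11 were higher and 9 lower.

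**Figure D1:**
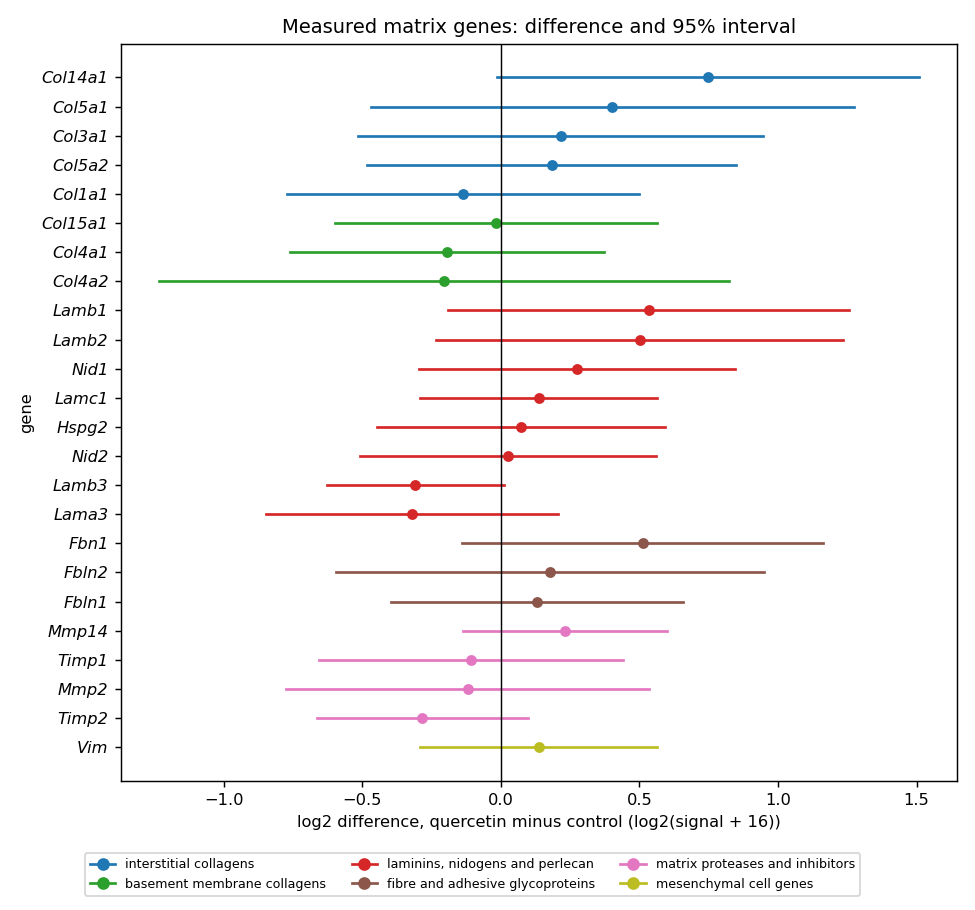
Each point is the log2 difference of 1 matrix gene, quercetin minus control on the log2(signal + 16) scale (horizontal axis), and the line is its 95% interval from limma with 4 arrays a group. Colours mark the role of the 24 tested genes; every interval crosses 0, Col14a1 has the highest difference (0.75) and Lama3 the lowest (-0.32).

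With 4 arrays a group, the intervals allowed differences of moderate size for some of these genes. The 95% intervals of 18 of the 24 lay within -1 to 1 on the log2(signal + 16) scale. For 5 genes, Col14a1, Col5a1, Lamb1, Lamb2 and Fbn1, the upper bound was over 1, and for Col4a2 the lower bound was under -1. The median standard error of the 24 was 0.266, against 0.222 for all probe sets tested.

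Among laminin chains, Lamb3 was the gene whose groups did not overlap. Lamb3 encodes the beta3 chain of the laminin that anchors hemidesmosomes of epithelial cells. Its signal was 991, 1389.6, 1443 and 1494 on quercetin arrays 1 to 4, against 1602, 1583, 1518 and 1835 on control arrays 1 to 4. Every quercetin array lay below the lowest control array, and quercetin array 1 lay farthest down. The mean signal was 1329.6 ± 229 in quercetin and 1635 ± 138 in control (SD, n = 4 each). The log2 difference was -0.31 (SE 0.148, 95% interval -0.63 to 0.01, limma adjusted p = 0.482), so the threshold was not met. Without quercetin array 1 it was -0.18, and with 1 array left out at a time it ran from -0.37 to -0.18.

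Lama3 encodes the alpha3 chain, which joins the Lamb3 product in the same trimer. Its signal was 152, 228, 94.3 and 159 in quercetin, against 194, 147, 187 and 263 in control. The quercetin arrays held both the lowest value and the second-highest value, and the groups overlapped. The log2 difference was -0.32 (SE 0.243, interval -0.85 to 0.21), or -0.12 without quercetin array 3. Leaving out 1 array at a time gave -0.50 to -0.12.

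The beta1, beta2 and gamma1 chains, found in laminins of vessels, muscle and epithelia, had higher means in quercetin without passing the test. Lamb1 had signals of 108, 104, 79.5 and 40.3 in quercetin, against 28.5, 97.3, 39.6 and 49.1 in control. Control array 2 reached the level of the high quercetin arrays, and quercetin array 4 lay within the control range. The log2 difference of Lamb1 was 0.53 (interval -0.19 to 1.25), 0.35 without control array 1 and 0.80 without control array 2. Lamb2 had 60.7, 43.8, 71.2 and 85.2 in quercetin, against 11.9, 50.3, 50.03 and 66.7 in control, a log2 difference of 0.50 (interval -0.23 to 1.24). Its lowest value was on control array 1, and without that array the difference was 0.16. Leaving out 1 array at a time gave 0.16 to 0.68. Lamc1 had a log2 difference of 0.14 (interval -0.29 to 0.56), with signals between 86.0 and 143 over the 8 arrays, and 0.04 without quercetin array 1 or 0.25 without quercetin array 4. Lama5, the alpha5 chain of the adult epithelial basement membrane, did not pass the filter.

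None of the 3 proteins that link the laminin and collagen IV sheets passed the test. Nid1, a nidogen, had 95.5, 111, 117 and 121 in quercetin, against 132, 53.3, 130.2 and 64.6 in control. The quercetin arrays lay close together inside a wide control range, and the log2 difference was 0.27 (interval -0.30 to 0.84), or 0.08 without control array 2. Leaving out 1 array at a time gave 0.08 to 0.44. A second tested Nid1 probe set had -0.01. Nid2 had a log2 difference of 0.03 (interval -0.51 to 0.56), and its highest signal was 1.52 times its lowest, the narrowest range of the 24 genes. Hspg2, which encodes perlecan, had 91.5, 183, 207 and 124 in quercetin, against 152, 153, 146 and 103 in control. The log2 difference of Hspg2 was 0.07 (interval -0.45 to 0.59).

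The 3 tested collagens of basement membranes had log2 differences from -0.21 to -0.02, none past the test. Col4a1 and Col4a2 encode the chains of the common collagen IV trimer. Col4a1 had signals of 37.6, 47.8, 33.9 and 39.8 in quercetin, against 31.1, 45.6, 62.0 and 56.0 in control. Its log2 difference was -0.19 (interval -0.76 to 0.37), with -0.34 without control array 1 and -0.10 without control array 3. A second tested probe set had -0.11. Col4a2 varied most, with 10.7, 84.4, 27.8 and 39.6 in quercetin, against 39.5, 84.4, 67.3 and 8.8 in control. Its log2 difference of -0.21 had an interval of -1.23 to 0.82 and took the opposite sign without quercetin array 1 (0.10), without control array 2 (0.06) and with array weights (0.15). Col15a1, a collagen at the border of basement membrane and stroma, had 78.7, 114, 51.7 and 53.7 in quercetin, against 107, 70.1, 62.7 and 57.6 in control. The log2 difference of Col15a1 was -0.02 (interval -0.60 to 0.56), and its sign turned with quantile normalisation, median centring and array weights. Col18a1, the source of endostatin, did not pass the filter.

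Of the 6 interstitial collagens, 5 passed the filter, 4 of them with a higher and 1 with a lower mean in quercetin. Col14a1 and Col3a1, both higher, passed it only through the quercetin arrays, so no direction is read from that count. Of all probe sets tested 51.3% were higher. Col14a1, a collagen that coats the surface of fibrils, had signals of 47.7, 35.2, 37.4 and 55.6 in quercetin, against 25.02, 17.1, 4.13 and 41.3 in control. Control array 4 lay within the quercetin range and control array 3 far below it. The mean signal was 44.0 ± 9.46 in quercetin and 21.9 ± 15.5 in control (SD, n = 4 each). The log2 difference was 0.75 (SE 0.352, interval -0.01 to 1.51, limma adjusted p = 0.476), or 0.48 without control array 3. Leaving out 1 array at a time gave 0.48 to 0.98. Col14a1 passed the filter by a small margin, with a mean of 5.52 on the log2 scale against a limit of 5.50, and its place among the tested genes rests on the quercetin arrays. The gene nearest to the limit on the other side was Lama5, at 5.49. A dimmer Col14a1 probe set, not tested, had 0.02.

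Col5a1, a chain of the collagen that nucleates fibrils, had 89.6, 78.1, 50.1 and 20.4 in quercetin, against 20.2, 78.8, 19.7 and 48.2 in control. Both groups spanned nearly the same range, and the log2 difference was 0.40 (interval -0.47 to 1.27), or 0.20 without quercetin array 1 and 0.71 without quercetin array 4. Col5a2, its partner chain, had 0.18 (interval -0.48 to 0.85), or 0.04 without control array 3 and 0.34 without quercetin array 1. A dimmer Col5a2 probe set, not tested, had -0.31, so no direction is given for the gene. The difference was 0.22 (interval -0.51 to 0.94) for Col3a1, of the fine fibrils of soft tissue, and -0.02 without control array 4.

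Col1a1 encodes the main chain of type I collagen. Its signal was 37.8, 48.8, 44.7 and 24.0 in quercetin, against 47.4, 59.7, 47.7 and 24.2 in control, a log2 difference of -0.14 (interval -0.77 to 0.50). A dimmer Col1a1 probe set that did not pass the filter had a mean signal of 37.0 in quercetin and 17.5 in control, with no overlap between the groups and a log2 difference of 0.71. The probe sets of Col1a1 thus differed in sign, and no direction is given for the gene. This was 1 of 30 further probe sets of the 44 genes, and the other 29 overlapped. Over the 24 genes with several probe sets, 11 had values of both signs.

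Among fibre and adhesive glycoproteins, 3 of 7 passed the filter, none past the test. Fbn1, the fibrillin of elastic microfibrils, had 52.6, 63.997, 39.3 and 34.6 in quercetin, against 16.8, 30.9, 46.6 and 22.7 in control. Control array 3 lay inside the quercetin range, and the log2 difference was 0.51 (interval -0.14 to 1.16). Fbn1 passed the filter only through the quercetin arrays, with a mean log2 level of 5.97 in quercetin and 5.46 in control. Fbln1, a fibulin of elastic fibres and basement membranes, had 58.0, 83.4, 70.2 and 63.2 in quercetin, against 37.5, 80.0, 67.3 and 65.7 in control. The log2 differences of Fbln1 and of the related Fbln2 were 0.13 (interval -0.40 to 0.66) and 0.18 (interval -0.60 to 0.95).

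The proteases and their inhibitors included genes with high signals on every array. Timp2, an inhibitor that also takes part in the activation of the gelatinase Mmp2, had 2531, 1837, 2993 and 2589 in quercetin, against 2874, 3708, 2309 and 3228 in control. The lowest value was on quercetin array 2 and the highest on control array 2, while control arrays 1 and 3 lay inside the quercetin range. The mean signal was 2488 ± 479.6 in quercetin and 3029.8 ± 589.6 in control (SD, n = 4 each). The log2 difference of Timp2 was -0.28 (SE 0.175, interval -0.66 to 0.10, limma adjusted p = 0.6), or -0.15 without quercetin array 2 and -0.18 without control array 2. Leaving out 1 array at a time gave -0.41 to -0.15. A dimmer Timp2 probe set that was also tested had -0.14.

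Timp1, an inhibitor that many cytokines induce, had 1456, 1166, 1950.0 and 1649 in quercetin, against 2668, 1078, 1259 and 2031 in control. The control arrays held both the lowest and the highest value. The log2 difference was -0.11 (interval -0.66 to 0.44), and 0.12 without control array 1. Mmp14, the membrane-bound protease that activates Mmp2, had 596, 470.4, 406 and 493 in quercetin, against 331, 374, 473 and 493 in control. Its log2 difference was 0.23 (interval -0.14 to 0.60), or 0.13 without control array 1 and 0.32 without quercetin array 3. A second tested probe set had 0.43. Mmp2 had a log2 difference of -0.12 (interval -0.78 to 0.54), with its highest signal, 78.9, on quercetin array 4. Timp3, an inhibitor bound to the matrix, did not pass the filter.

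**Figure D2:**
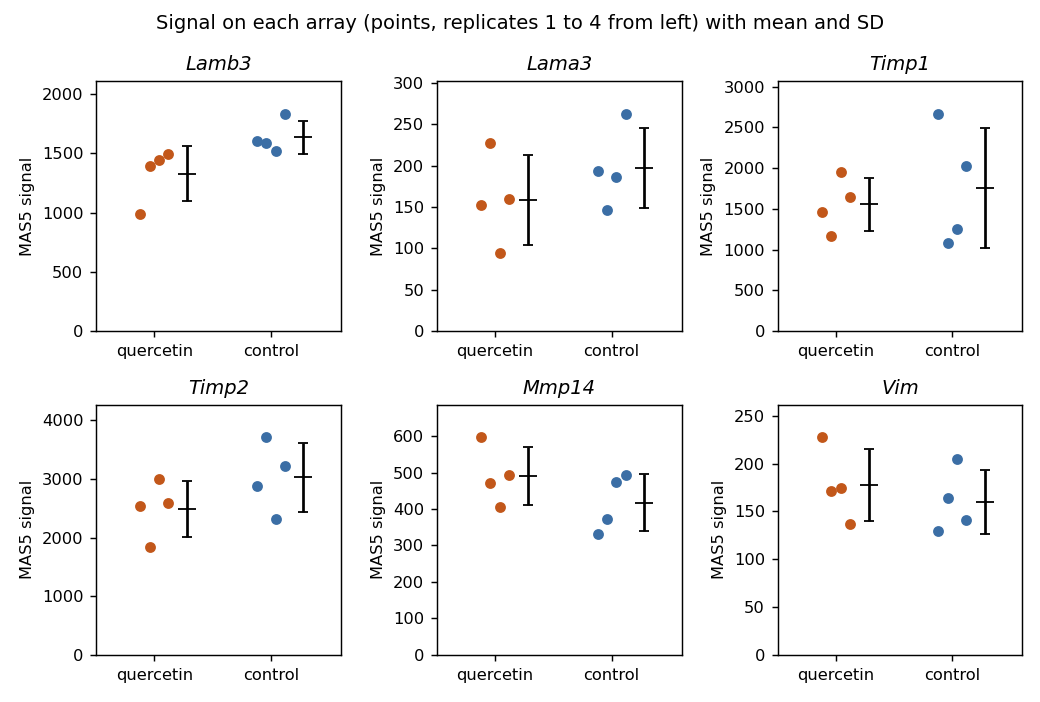
MAS5 signal (vertical axes, linear from 0, a separate scale for each gene) of 6 genes on the 4 quercetin and 4 control arrays; points are single arrays and the bars give mean and SD. The groups are apart for Lamb3 (991 to 1494 in quercetin, 1518 to 1835 in control) and overlap for Lama3, Timp1, Timp2, Mmp14 and Vim.

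Vim, the intermediate filament of mesenchymal cells, had 228, 172, 174 and 137 in quercetin, against 129, 164, 205 and 142 in control. The groups overlapped, and the log2 difference was 0.14 (interval -0.29 to 0.56), or 0.02 without quercetin array 1. Leaving out 1 array at a time gave 0.02 to 0.25. The other 2 mesenchymal genes, the PDGF receptors Pdgfra and Pdgfrb of fibroblasts and pericytes, did not pass the filter.

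Several stromal gene groups lay below the filter as a whole. These were all 3 collagen VI chains (Col6a1, Col6a2 and Col6a3, which form beaded filaments), all 5 of the small proteoglycans and dermatopontin (Dcn, Lum, Bgn, Ogn and Dpt, which bind and space collagen fibrils) and both lysyl oxidases (Lox and Loxl1). The type I collagen chain Col1a2 was below it too, as were 4 glycoproteins, the cell-adhesive fibronectin Fn1, Sparc, Mgp and Postn. Each of the 20 genes below the filter had a signal under 10 on at least 1 array, as did 2 of the 24 tested genes. Their signals ran from 0.593 to 74.6 over 160 values, and all 20 genes overlapped between the groups. Of all probe sets tested 6.39% did not overlap, and the share among all dim probe sets was not counted. Within a gene, the highest signal was a median of 17.5 times the lowest over the 8 arrays, against 2.48 times for the 24 tested genes.

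The brightest members of these dim groups show the scatter. Dpt had 20.7, 19.0, 19.8 and 32.6 in quercetin, against 5.81, 60.1, 27.6 and 1.25 in control. Lox had 1.46, 4.22, 34.6 and 18.0 in quercetin, against 2.37, 39.4, 33.2 and 2.06 in control, high and low in both groups. Col6a3 had 18.1, 27.4, 5.10 and 38.2 in quercetin, against 29.7, 3.52, 6.28 and 11.8 in control. By sign 9 of the 20 were higher and 11 lower in quercetin, with untested log2 differences between -0.52 (Ogn) and 0.54 (Postn). No direction is given for any of them.

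**Figure D3:**
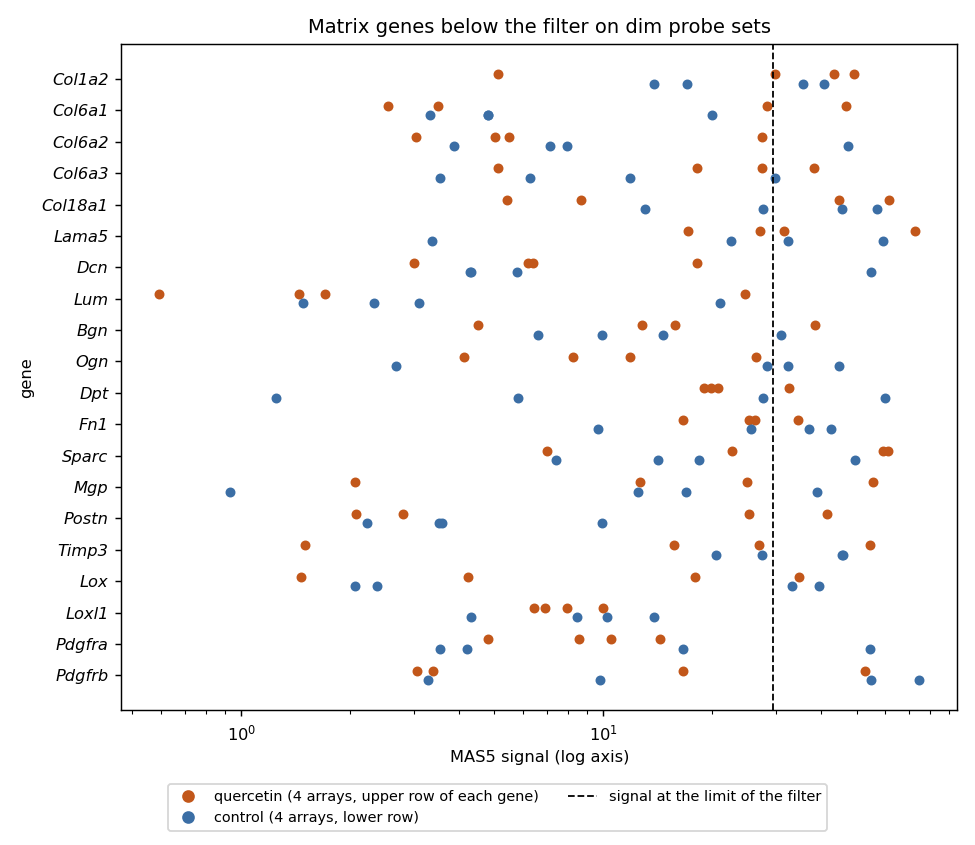
MAS5 signal on a log axis (horizontal) of the 20 matrix genes below the filter, with 4 quercetin arrays in the upper row and 4 control arrays in the lower row of each gene. The dashed line marks a signal of 29.4, the limit of the filter; single genes spread over up to 59.6-fold, and quercetin and control points mix for every gene.

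Markers of other cells were measured to see which tissues the scraped material contained. All 14 genes of the absorptive colonocyte list and all 8 goblet cell markers on the array passed the filter, so genes of the epithelium of the labelled mucosa were measured. The 14 include genes of epithelial cells in general, such as Epcam and Cdh1, and passing the filter is a rank by level and not a call of presence. Of smooth muscle markers 8 of 13 passed, namely Myh11, Acta2, Smtn, Tpm2, Cald1, Synpo2, Mylk and Des. Tagln, Cnn1, Actg2, Myl9 and Lmod1 lay below the limit. Of endothelial markers 4 of 10 passed, and of pericyte markers 1 of 6. The summed signal of the 13 smooth muscle markers was 1904 to 2261 in quercetin and 1899 to 3583 in control, with the highest sum on control array 1. Most of that sum was 1 gene, the myosin kinase Mylk, with 1294, 1086, 1534 and 1264 in quercetin, against 2693, 1643, 1219 and 1636 in control. Desmin (Des), a defining muscle marker, had 38.4 to 50.1 in quercetin and 20.3 to 76.8 in control, with its lowest value on control array 1. The list as a whole was not low there. On control array 1, 5 of the 8 tested smooth muscle markers lay above their own mean, 3 at their highest, while 2 were at their lowest. Their median deviation from their own means was 0.31 on that array, higher than on any other. In such bulk samples, fewer cells of a type and less RNA per cell cannot be told apart. None of the 46 tested genes of 9 cell type lists passed the adjusted limma threshold, and 4 (8.70%) had an unadjusted p under 0.05, all higher in quercetin, against 10.8% of all probe sets tested (5.04% higher). These were Slc9a3, a sodium and proton exchanger of colonocytes (0.72), Spink4 of goblet cells (1.37), the lysozyme gene Lyz2 of macrophages (0.57) and Fabp4 of fat cells (1.54). They do not stand for their lists, which held genes of both signs. Of the colonocyte list 8 were higher and 6 lower (median 0.05), and of goblet cell markers 5 and 3 (median 0.09). Of macrophage and dendritic cell markers 3 were higher and 2 lower (median 0.02), and of fat cell markers 2 and 1 (median 0.41). Fabp4 passed the filter only through the quercetin arrays, with a mean log2 level of 6.36 in quercetin and 4.81 in control against the limit of 5.50. The same held for Csf1r of the macrophage list, with 6.09 in quercetin and 5.43 in control.

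No array was high or low for all 24 tested matrix genes. Their mean deviation from their own 8-array means was 0.02, 0.17, 0.09 and -0.05 on quercetin arrays 1 to 4, against -0.11, 0.03, -0.04 and -0.09 on control arrays 1 to 4. On quercetin arrays 2 and 3, 17 of 24 genes lay above their own mean, and on quercetin arrays 1 and 4 it was 10 of 24. Control array 1 held the lowest value of 7 genes, among them Lamb1, Lamb2, Fbn1 and Fbln1, yet also the highest value of Timp1. Quercetin array 1 held the highest value of 6 genes.

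**Figure D4:**
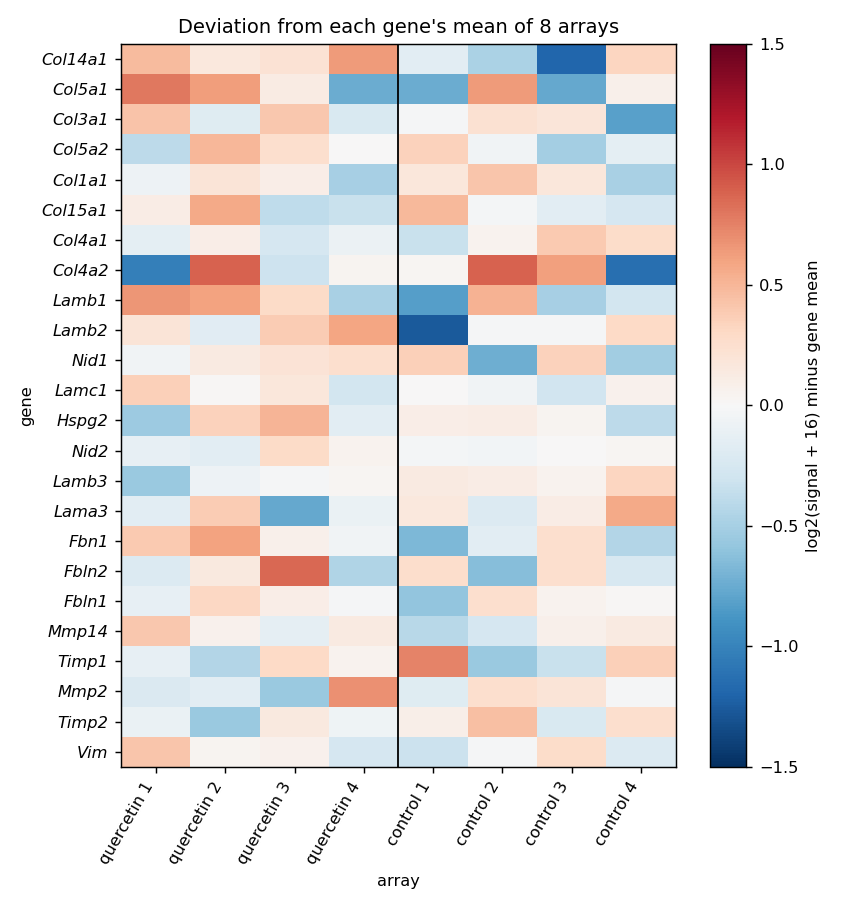
Deviation of each tested matrix gene (rows) on each array (columns, quercetin left of the line, control right) from its mean of 8 arrays, in log2(signal + 16) units; red is higher and blue lower. No column is of 1 colour, and single dark cells, such as Lamb2 on control array 1, lie among pale ones.

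Genes around the matrix were taken from 6 further lists of collagens, other matrix proteins, collagen-processing enzymes, proteases, receptors, and TGF-beta and PDGF signalling. Of 120 such genes on the array 57 were tested, and 0 passed the adjusted limma threshold. At an unadjusted p under 0.05 there were 5, 3 higher and 2 lower, which is 8.77% against 10.8% of all probe sets tested. The median log2 difference of the 57 was 0.08, against 0.01 for all probe sets tested, and no direction is read from it. Col2a1 and Ccn1 passed the filter only through the quercetin arrays, and Col4a5 and Mfap2 only through the control arrays.

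Of these, 2 were receptors for collagen or laminin. Ddr1, a receptor tyrosine kinase that binds collagen, had 546, 598, 607 and 587 in quercetin, against 435, 272, 417 and 486 in control. All 4 quercetin arrays lay above all 4 control arrays, and the log2 difference was 0.55 (SE 0.173, interval 0.18 to 0.92, limma adjusted p = 0.309). Itgb1, the shared beta chain of the collagen and laminin integrins, had 2006, 2256, 2229 and 2127 in quercetin, against 1914, 1456, 1718 and 1702 in control. These groups did not overlap either, and the log2 difference was 0.35 (SE 0.123, interval 0.08 to 0.61, limma adjusted p = 0.349). Neither met the adjusted threshold. The lowest control value of both was on control array 2, and without that array the differences were 0.38 for Ddr1 and 0.28 for Itgb1. Leaving out 1 array at a time gave 0.38 to 0.65 for Ddr1 and 0.28 to 0.41 for Itgb1.

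Itga6 and Itgb4, the integrin chains that hold the Lamb3 laminin in hemidesmosomes, were chosen after values were seen. Itga6 had a log2 difference of -0.01 (interval -0.30 to 0.29) and Itgb4 one of 0.19 (interval -0.20 to 0.58), or 0.05 without control array 2 and 0.29 without quercetin array 1. The other genes with an unadjusted p under 0.05 were Plat, the tissue plasminogen activator (1.05, interval 0.28 to 1.82), Adamts1, a protease of proteoglycans (-0.81, interval -1.501 to -0.11), and Pdgfa, a ligand of Pdgfra (-0.44, interval -0.83 to -0.06). Plat had its highest signal, 688, on quercetin array 2, and the difference was 0.69 without that array. Pdgfa had -0.29 without quercetin array 1. Leaving out 1 array at a time gave 0.69 to 1.25 for Plat, -1.15 to -0.65 for Adamts1 and -0.55 to -0.29 for Pdgfa. The groups did not overlap for 3 of the 57 genes (5.26%), all higher in quercetin, against 6.39% of all probe sets tested (3.09% higher). Beside Ddr1 and Itgb1 this was P4hb, a subunit of the collagen prolyl hydroxylase, also chosen after values were seen. Its signal was 6731, 7163, 6925 and 6834 in quercetin, against 5826, 6146, 6011 and 6629 in control, a log2 difference of 0.17 (interval -0.07 to 0.40).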

How the data were processed

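Total RNA of 8 samples was labelled with biotin and hybridised to Affymetrix rat arrays, 1 array a sample. The deposited intensity values are MAS5 signals per probe set, made by the authors with MAS5 per the submitters' processing notes, and the 2% trimmed mean was 200.1 on each array. MAS5 reduces a probe set to 1 signal, and its dim signals scatter widely. The sources used here name no software version, scanner setting or genome build. Groups and replicate numbers came from the sample titles.

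Array controls (57 of 31099 probe sets) were not tested. The upper 60% by mean log2(signal + 16) over all 8 arrays, 18625 probe sets, were tested with limma 3.58.1 in R 4.3.3 (lmFit, eBayes with trend, two-sided, Benjamini-Hochberg, threshold 0.05). Symbols came from the platform annotation, updated through Entrez identifiers with a RefSeq table (GRCr8). Probe sets with several symbols were left unnamed. The steps were tested on simulated data.

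The members and lists were chosen with earlier results of these data known. Values on every array are given for members without overlap or with an unadjusted p under 0.05 and, where a role had neither, for its brightest gene and that with the smallest p. Genes of the other lists with an unadjusted p under 0.05 were named, most of them without values on every array. Other members so described, and probe sets named for disagreement, were chosen after their values were seen. The alternatives left out each array in turn or control arrays 1 and 2 together, set the pseudocount to 1 or 64, normalised by quantiles or by array medians, kept all probe sets or the upper 40%, averaged the probe sets of each gene, and fitted array weights, a replicate block, no trend or the GAPDH ratio as a covariate.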

Additional observations from a re-analysis of the deposited data

Results flagged for a closer look

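In each diet, single arrays were compared with their group for 56 genes and for the mean level of the tested matrix genes, which makes 114 groups. In 10 of them the highest or lowest array stood off. About 5.7 would be due to chance if values were normal and groups independent. The groups share the same arrays and include dim genes, so the count of 10 is not read against 5.7. The number in parentheses is the distance from that array to its neighbour, divided by the spread of all 4 values on the log2(signal + 16) scale. Quercetin array 1 lay high for Col6a2 (0.854), quercetin array 3 high for Lum (0.928) and quercetin array 4 high for Dpt (0.856). Quercetin array 2 lay low for Itga6 (0.976). Control array 2 lay high for Dcn (0.943) and Col6a2 (0.84), control array 1 high for Lum (0.882) and control array 4 high for Col6a1 (0.88). Control array 4 lay low for Hspg2 (0.872) and control array 3 low for Adamts1 (0.946). Col6a1, Col6a2, Dcn, Lum and Dpt were below the filter, and these account for 7 of the 10.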

How the results depend on the processing

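Of the 24 tested matrix genes, 0 passed the adjusted threshold under each of the 20 alternatives. The 4 alternatives with 1 gene higher at an unadjusted p under 0.05 were median centring, the replicate block, eBayes without the trend (Col14a1 in these) and the GAPDH covariate (Lamb1). In that order 10.3%, 11.1%, 9.87% and 13.9% of all probe sets tested had an unadjusted p under 0.05. Leaving out 1 array gave 0 to 1 higher and 0 to 1 lower. These were Lamb1 and Lamb3 without quercetin array 4 and Lamb1 without control array 2. Timp2 was the gene without control array 3, and Col14a1 without control array 4. With 1 array left out, 7.92% to 11.1% of all probe sets tested had an unadjusted p under 0.05. The genes named here are therefore not read as a result. The count of all probe sets past the threshold was 1 with quantile normalisation, median centring, no filter, the replicate block and eBayes without the trend, 0 with probe sets averaged per gene and without control arrays 1 and 2, and 1 to 2 with 1 array left out. It was 3 with a pseudocount of 64. Without the filter 24 of 44 genes had a higher mean in quercetin, and in the upper 40% 5 of 9, since other numbers of genes were tested. The median difference was 0.06 to 0.19 with 1 array left out.

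Same-numbered arrays had correlations of -0.02, 0.16, -0.15 and 0.14 between their deviations, so the numbers were not taken to pair the samples, and the replicate block changed no adjusted call of a matrix gene. Of 463 values of the 24 genes under alternatives 28 took the opposite sign, in 11 genes, none of which had passed. Col15a1 had 0.0198 with quantile normalisation, 0.0316 with median centring, 0.0281 with array weights, 0.00194 with the mean of its probe sets and 0.20 without control arrays 1 and 2. Col1a1 had 0.28 with the mean of its probe sets and 0.0909 without control arrays 1 and 2. Col4a2 had 0.15 with array weights and 0.15 without control arrays 1 and 2, Nid2 had -0.00187 without them, and Col5a2 had -0.0610 with the mean of its probe sets. Itga6 had 0.00305, 0.0430, 0.0481, 0.14 and 0.12 with quantile normalisation, median centring, array weights, probe set means and no control arrays 1 and 2. With 1 array left out the ranges were -0.32 to 0.00841 for Col1a1, -0.0208 to 0.33 for Col3a1, -0.62 to 0.10 for Col4a2, -0.21 to 0.14 for Col15a1, -0.0651 to 0.0834 for Nid2, -0.0839 to 0.27 for Hspg2, -0.0435 to 0.24 for Fbln1, -0.0816 to 0.35 for Fbln2, -0.31 to 0.12 for Timp1, -0.37 to 0.0456 for Mmp2 and -0.0851 to 0.0838 for Itga6. The causes were not tested.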
